A study of Mus musculus with 2 samples.

Results

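Genes of DNA replication and S phase were examined in T cells of the gut epithelium, called intraepithelial lymphocytes (IEL). The list was given by name and holds 42 genes: the machinery that licenses origins, unwinds and copies DNA, the enzymes that supply nucleotides, the factors that start S phase and those that copy chromatin. A gene was taken where the array's deposited annotation gave its exact symbol alone, and 39 of the 42 were found this way, out of 20662 genes on the array. Orc1 and Orc6 stand there under older symbols and are given apart, and Chaf1a was not analysed here. CD4CD8aa IEL, CD4 T cells sorted for CD8 alpha, were set against CD4 IEL, sorted as CD4 cells without CD8 alpha. Both came from the small intestine of RAG-knockout mice on the C57BL/6 background, 8 weeks after they had received naive CD4 T cells, a transfer model of colitis. Hosts without RAG cannot form lymphocytes with rearranged receptors, so the T cells of both populations go back to the transferred ones. Each population was read on 1 array without replicates, from an unstated number of mice, and no difference below carries a test.

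A cell that is about to divide loads the MCM helicase ring onto origins of replication with the help of the origin recognition complex, Cdc6 and Cdt1. At the start of S phase cyclin E with Cdk2 relieves the E2F factors, which drive the transcription of many of the genes described here, and Cdc45 and the GINS complex join the ring to form the active helicase. Polymerases then copy both strands, held to the template by the sliding clamp PCNA. T cells that expand after transfer into a lymphocyte-free host divide repeatedly, and transcripts of this machinery are widely used as a sign of dividing cells in a population.

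Signals are multiples of the array's median signal, and differences are log2 CD4CD8aa IEL minus CD4 IEL. Signals below 0.4 times the array median were raised to that floor, and a gene was called detected if the brighter array lay above it, which held for 17375 genes. Different probe sets bind with different strength, so signals are compared between arrays and not between genes. With no replicates, error could be judged only from how far a gene's several probe sets disagreed. The SD of their log2 differences, called the same-gene SD here, was 0.81 for signals under the median and narrowed with brightness to 0.45 at 4 to 16 times the median, 0.41 at 16 to 64 times and 0.35 for still brighter ones. The labels held at the sorted marker: Cd8a had a signal of 291 in CD4CD8aa IEL, against 3.79 in CD4 IEL. Cd4 had 86.4 in CD4CD8aa IEL and 72.6 in CD4 IEL.

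The letters that E2F factors bind were looked for in the promoters, because these factors are the known common regulators of the replication genes. RefSeq promoter windows of 300 bases (build GRCm38.p6, 250 before and 50 after the transcription start) were available for 35 of the 42 genes. The 8-base words TTTCCCGC, TTTGGCGC, TTTCGCGC and TTTGCCGC were searched on both strands, and overlapping matches were kept. At least 1 of them was found for 14 of the 35 genes (40.0%), against 704 of the 27025 genes in the table (2.6%). The 14 include Orc1, which was not found by its exact symbol. Of the genes found that way, 13 had a match and 19 had a window without one. Of the 10920 genes that were detected on these arrays and have a window, 442 (4.05%) had a match. Mcm6, which encodes an MCM ring subunit, had 3 matches, all before its start, the first and second overlapping. Its 250 bases before the start are shown with the matches in capitals.
Mcm6 (chr1:128359706-128359955, minus strand): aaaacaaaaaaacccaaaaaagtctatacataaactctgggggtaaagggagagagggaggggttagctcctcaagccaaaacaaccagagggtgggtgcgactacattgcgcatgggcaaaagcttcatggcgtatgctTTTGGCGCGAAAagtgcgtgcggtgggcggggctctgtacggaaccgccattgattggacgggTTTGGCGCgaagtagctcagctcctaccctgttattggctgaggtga

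The stretches around 1 match each, in capitals and read along the gene's strand, are shown for 8 further genes from several of the roles below. In Mcm5 and Rfc3 the stretch also holds another match that is not marked. Among the genes shown are Pold1 and Cdt1, the genes with a match that lay highest and lowest in CD4CD8aa IEL relative to CD4 IEL with all their detected probe sets on one side.
Mcm3 (chr1:20820275-20820304, minus strand): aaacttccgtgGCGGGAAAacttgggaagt
Mcm5 (chr8:75109345-75109374, plus strand): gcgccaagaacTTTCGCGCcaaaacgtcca
Mcm7 (chr5:138172030-138172059, minus strand): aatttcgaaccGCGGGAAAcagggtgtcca
Cdc6 (chr11:98908002-98908031, plus strand): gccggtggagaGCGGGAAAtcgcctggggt
Cdt1 (chr8:122568036-122568064, plus strand): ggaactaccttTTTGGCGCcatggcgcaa
Pold1 (chr7:44548766-44548787, minus strand): cgtatcttgtgGCGGGAAAagc
Rfc3 (chr5:151651200-151651229, minus strand): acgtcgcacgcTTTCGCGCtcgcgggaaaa
Cdk2 (chr10:128705173-128705202, minus strand): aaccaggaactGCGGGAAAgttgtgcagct
The matches begin at position -153 of Mcm5, -165 of Mcm7, -138 of Cdc6, -140 of Cdk2 and -10 of Rfc3, where -1 is the base before the start, and after the start in Mcm3, Cdt1 and Pold1. A match describes these letters only and does not show that a factor binds there.

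At their brightest probe sets the replication genes gave signals above the floor in both populations, and none differed by 2-fold. All 39 genes lay above the floor on both arrays, and 36 of them had a mean signal of at least 4 times the array median. The floor was passed by 69.9% of all probe sets on the CD4CD8aa IEL array and 70.0% on the CD4 IEL array. Of all 20662 genes, 7705 reached that mean signal. Tyms lay below the array median on both arrays. None of the 39 was at least 2-fold higher in CD4CD8aa IEL and none at least 2-fold lower. Of all detected genes, 6.65% were higher and 6.26% lower by that much. Among the 7705 detected genes with a mean signal of at least 4 times the median these shares were 2.02% and 1.84%. At those shares a list of this size would hold few such genes or none. Of the other detected probe sets of these genes, 5 were at least 2-fold higher. With the median over a gene's probe sets, E2f1 and Rfc2 were at least 2-fold higher. The median difference of the 39 genes was 0.25, beside 0.06 for all detected genes and 0.07 for those of at least 4 times the median. Of the 39, 30 (76.9%) had a difference above 0, where 54.8% of all detected genes and 58.4% of those of at least 4 times the median did. At a log2 step of 0.32, smaller than the same-gene SD, 15 (38.5%) were higher and 2 (5.13%) lower, where 30.9% and 24.5% of all detected genes were. Among the genes of at least 4 times the median, 12 of the 36 were higher and 2 lower by that step, where 25.7% and 14.9% of all such genes were. After centring on a lowess curve of difference against signal, 26 of the 39 were above 0 (49.8% of all detected genes), and 10 were higher and 5 lower by that step (27.1% and 27.5% of all detected genes). Beyond 1 same-gene SD at their own signal lay 8 genes in the higher direction (20.5%, background 18.1%) and 2 in the lower (5.13%, background 13.6%). Each role below holds few genes, so its count above or below 0 describes those genes only. RNA of a whole population cannot tell more cells in S phase from more of a transcript per cell.

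**Figure D1:**
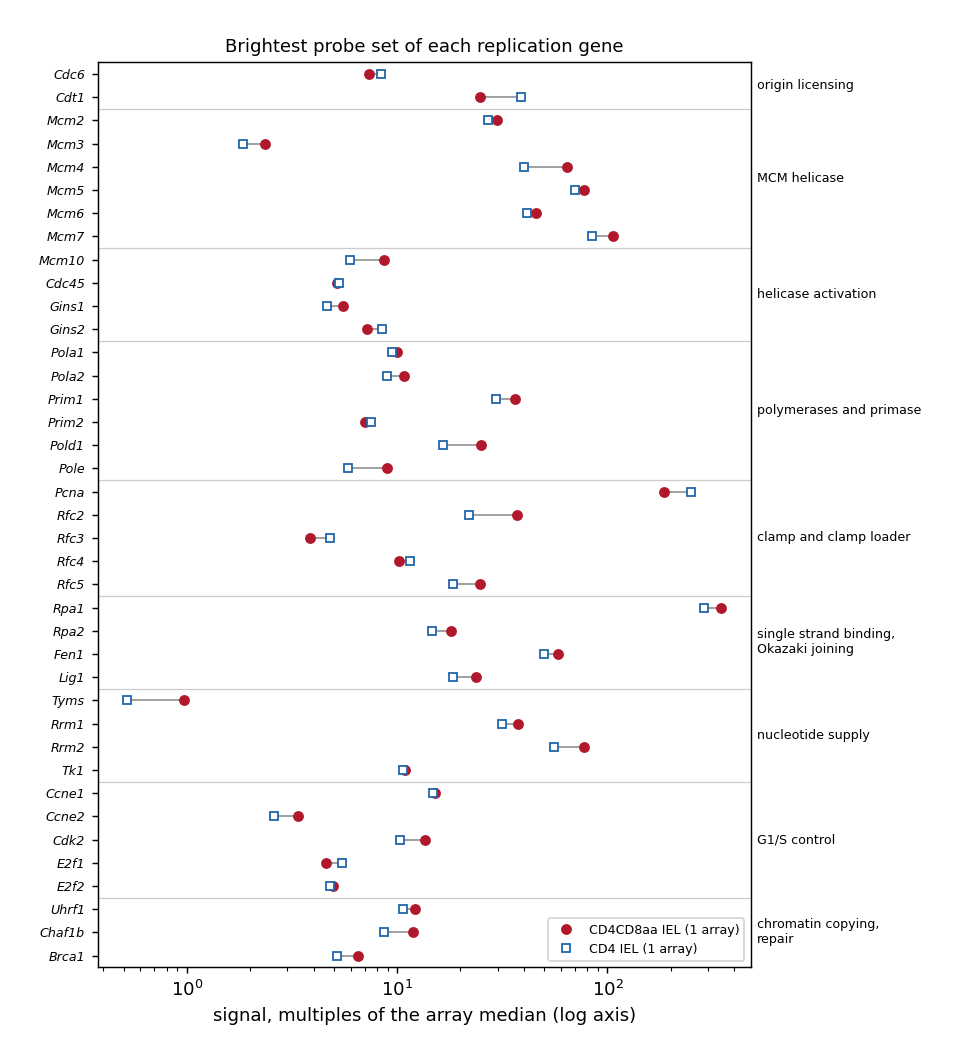
Signal of the brightest probe set of each of the 39 replication genes in CD4CD8aa IEL (filled circles, 1 array) and CD4 IEL (open squares, 1 array), in multiples of the array median on a log axis, grouped by role. The circle lies to the right of the square for 30 genes, and the pairs lie less than 2-fold apart.

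In origin licensing, both genes found by their exact symbol, Cdt1 and Cdc6, were lower in CD4CD8aa IEL. Orc1 and Orc6, under older symbols, were higher by less than the same-gene SD. Cdt1, which brings the MCM ring to origins and is destroyed once S phase begins, had a signal of 24.7 in CD4CD8aa IEL and 38.9 in CD4 IEL, 1.58-fold lower (log2 difference -0.66). This was the lowest difference of the 39 genes, and the second detected probe set of Cdt1 gave 10.6 in CD4CD8aa IEL and 13.8 in CD4 IEL, a difference of -0.38. Cdc6, the ATPase that loads the ring together with Cdt1, had 7.33 in CD4CD8aa IEL and 8.37 in CD4 IEL, a difference of -0.19 at its single probe set, within the same-gene SD of 0.45. The origin recognition subunits that carry older symbols on the array went the other way by small amounts. Orc1, listed as Orc1l, had 1.85 in CD4CD8aa IEL and 1.56 in CD4 IEL (0.24, same-gene SD 0.67). Its other probe set had 1.12 in CD4CD8aa IEL and 1.08 in CD4 IEL (0.05). Orc6, listed as Orc6l, had 11.04 in CD4CD8aa IEL and 9.03 in CD4 IEL (0.29, same-gene SD 0.45).

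The 6 subunits of the MCM ring, the motor that unwinds DNA at the fork, were all above 0 at their brightest probe set. The share above 0 of all detected genes was 54.8%. The median difference of the subunits was 0.24 and their range 0.14 to 0.69. Mcm3, Mcm6 and Mcm7 changed sign with another choice of probe set. Mcm4 had a signal of 64.5 in CD4CD8aa IEL and 40.1 in CD4 IEL, 1.61-fold higher (0.69). That value comes from a probe set whose suffix, _x_at, marks probes that may also bind other transcripts, and the other probe set of Mcm4 gave 33.8 in CD4CD8aa IEL and 30.5 in CD4 IEL, a difference of 0.15. In all, 9 of the 39 genes had a brightest probe set ending in _x_at or _s_at. Their median difference was 0.22, beside 0.25 for the other 30 genes. Mcm7 had 107 in CD4CD8aa IEL and 84.7 in CD4 IEL (0.33), while its other 3 probe sets gave differences of 0.35, 0.0031 and -0.05. The remaining subunits lay close to equal in the 2 populations. Mcm2 had 29.9 in CD4CD8aa IEL and 27.0 in CD4 IEL (0.14), and 0.22 at its other probe set. Mcm5 had 77.7 in CD4CD8aa IEL and 70.4 in CD4 IEL (0.14), and 0.05 at its other detected probe set. Mcm6 had 45.6 in CD4CD8aa IEL and 41.6 in CD4 IEL (0.14), but its second bright probe set gave 37.7 in CD4CD8aa IEL and 43.0 in CD4 IEL (-0.19). Mcm3 is read by 1 probe set of its own, at 2.36 in CD4CD8aa IEL and 1.85 in CD4 IEL (0.35). Brighter probe sets name Mcm3 together with a predicted similar locus, and the brightest of these had 25.4 on both arrays, a difference of -0.0015; the other 3 gave 0.07, -0.69 and -0.31.

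Factors that turn the loaded ring into a working helicase were split, with differences of -0.24 to 0.53. Mcm10, which joins the ring as the helicase is activated, had 8.64 in CD4CD8aa IEL and 5.98 in CD4 IEL, 1.45-fold higher (0.53), and its other probe sets gave 0.47 and 0.08. Cdc45, the partner of the ring in the active helicase, had 5.16 in CD4CD8aa IEL and 5.30 in CD4 IEL (-0.04), and -0.31 at its other probe set. Of the GINS complex, which completes that helicase, Gins1 had 5.53 in CD4CD8aa IEL and 4.65 in CD4 IEL (0.25) and Gins2 had 7.22 in CD4CD8aa IEL and 8.51 in CD4 IEL (-0.24). Both had a dimmer probe set that lay lower in CD4CD8aa IEL, at -0.77 for Gins1, where the CD4CD8aa signal was under the floor, and at -0.62 for Gins2.

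Of the polymerase and primase subunits, 5 of 6 were above 0, beside 54.8% of all detected genes, with a median of 0.27. Pola1 was at -0.03 after lowess centring. The catalytic subunits of the leading and lagging strand polymerases stood highest. Pole, the catalytic subunit of polymerase epsilon, had 8.92 in CD4CD8aa IEL and 5.81 in CD4 IEL, 1.54-fold higher (0.62). Pold1, the catalytic subunit of polymerase delta, had 24.9 in CD4CD8aa IEL and 16.5 in CD4 IEL, 1.51-fold higher (0.59), and its second probe set gave 11.9 in CD4CD8aa IEL and 8.64 in CD4 IEL (0.46). Polymerase alpha and primase, which lay down the primers, differed less. Prim1, the primase catalytic subunit, had 36.2 in CD4CD8aa IEL and 29.6 in CD4 IEL (0.29), with 0.59 at its other probe set. Prim2, its regulatory partner, had 7.04 in CD4CD8aa IEL and 7.48 in CD4 IEL (-0.09), with 0.06 at a probe set of like signal and a further one at 0.8002 in CD4CD8aa IEL and 0.116 in CD4 IEL, at least 2.00-fold higher. Pola1, the polymerase alpha catalytic subunit, had 9.97 in CD4CD8aa IEL and 9.49 in CD4 IEL (0.07), and Pola2, its accessory subunit, had 10.7 in CD4CD8aa IEL and 8.99 in CD4 IEL (0.25). Their dimmer probe sets, each under the floor on 1 array, gave 0.40 for Pola1 and 0.38 and -0.16 for Pola2.

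The sliding clamp and the complex that loads it held both the brightest gene that was lower and the bright gene with the largest excess in CD4CD8aa IEL. Pcna, the clamp that tethers polymerases to DNA, had 186 in CD4CD8aa IEL and 250 in CD4 IEL, 1.34-fold lower (-0.43, same-gene SD 0.35). It has 1 probe set, so no second reading is at hand. Rfc2, a subunit of the clamp loader, had 37.2 in CD4CD8aa IEL and 21.9 in CD4 IEL, 1.69-fold higher (0.76, same-gene SD 0.41). All 3 of its probe sets gave the same direction, the others being 2.08-fold and 2.32-fold higher in CD4CD8aa IEL. Both of those others end in _x_at, so they may also bind other transcripts. The other loader subunits lay on both sides of 0. Rfc5 had 24.9 in CD4CD8aa IEL and 18.4 in CD4 IEL (0.43). Rfc4 had 10.2 in CD4CD8aa IEL and 11.6 in CD4 IEL (-0.18), with -0.01 at its other probe set. Rfc3 had 3.85 in CD4CD8aa IEL and 4.79 in CD4 IEL (-0.31). The dimmer probe set of Rfc3 lay further down, at 2.08 in CD4CD8aa IEL and 3.70 in CD4 IEL (-0.83).

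Proteins that bind single strands or finish lagging strand fragments were above 0 by narrow and similar amounts, from 0.22 to 0.35. Of all detected genes, 54.8% were above 0. Rpa1, the large subunit of the single strand binding complex RPA, had 347 in CD4CD8aa IEL and 289 in CD4 IEL (0.27), and Rpa2, its middle subunit, had 17.9 in CD4CD8aa IEL and 14.6 in CD4 IEL (0.30). Fen1, the flap nuclease that trims fragments, had 58.3 in CD4CD8aa IEL and 50.1 in CD4 IEL (0.22). Lig1, the ligase that seals them, had 23.6 in CD4CD8aa IEL and 18.5 in CD4 IEL (0.35). Each of these differences was within the same-gene SD. The other probe sets of Rpa1 (-0.05), Rpa2 (-0.09) and Fen1 (-0.19) lay slightly below 0.

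Nucleotide supply enzymes were above 0 in all 4 cases at the brightest probe set, where 54.8% of all detected genes were. However, Tk1 lay below 0 after quantile normalization and after median or lowess centring, and 3 of the 4 had other probe sets below 0. Rrm2, the small subunit of ribonucleotide reductase and the one made mainly in S phase, had 77.4 in CD4CD8aa IEL and 55.5 in CD4 IEL, 1.39-fold higher (0.48). Of its other probe sets 1 gave 0.35 and 1 gave -0.71, at 7.53 in CD4CD8aa IEL and 12.3 in CD4 IEL. Rrm1, the large subunit, had 37.3 in CD4CD8aa IEL and 31.4 in CD4 IEL (0.25), with dimmer probe sets at 0.995 and -0.94. Tk1, the thymidine kinase of dividing cells, had 10.9 in CD4CD8aa IEL and 10.7 in CD4 IEL (0.03). Tyms, thymidylate synthase, had the largest difference of the list, at 0.97 in CD4CD8aa IEL and 0.52 in CD4 IEL (0.90), but its own probe sets all lay below the array median and a second one gave -0.35. A brighter probe set that names Tyms together with its pseudogene had 22.1 in CD4CD8aa IEL and 20.7 in CD4 IEL (0.09).

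Regulators of the entry into S phase had a median difference of 0.04, the smallest positive one of the roles. Cdk2, the kinase that cyclin E activates, had 13.6 in CD4CD8aa IEL and 10.3 in CD4 IEL (0.39). Of its cyclin partners, Ccne2 had 3.39 in CD4CD8aa IEL and 2.59 in CD4 IEL (0.39), and Ccne1 had 15.1 in CD4CD8aa IEL and 14.8 in CD4 IEL (0.03), with -0.26 at its other probe set. Ccne1 and E2f2 lay below 0 after median or lowess centring, and Ccne1 also after quantile normalization. The activating E2F factors differed by less than the same-gene SD at their brightest probe sets. E2f2 had 4.93 in CD4CD8aa IEL and 4.78 in CD4 IEL (0.04), with 0.28 at its other probe set. E2f1 had 4.61 in CD4CD8aa IEL and 5.45 in CD4 IEL (-0.24), while a dimmer probe set had 2.05 in CD4CD8aa IEL and 0.264 in CD4 IEL, at least 5.13-fold higher since the CD4 signal was under the floor. The probe sets of E2f1 thus gave no common direction.

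The 3 measured genes of chromatin copying and repair were above 0 at their brightest probe set, as were 54.8% of all detected genes. With the median over a gene's probe sets, Chaf1b lay at -0.06 and Brca1 at -0.28. Chaf1b, a subunit of the chromatin assembly factor that places histones behind the fork, had 11.9 in CD4CD8aa IEL and 8.66 in CD4 IEL (0.45), with -0.57 at a dimmer probe set. Uhrf1, which guides maintenance DNA methylation to new strands, had 12.1 in CD4CD8aa IEL and 10.6 in CD4 IEL (0.20), and its dimmer probe set had 1.26 in CD4CD8aa IEL and 0.576 in CD4 IEL (1.13). Brca1, which protects and repairs stalled forks, had 6.48 in CD4CD8aa IEL and 5.16 in CD4 IEL (0.33). Its other 4 probe sets lay near or below the array median and ranged from -0.77 to 0.97.

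**Figure D2:**
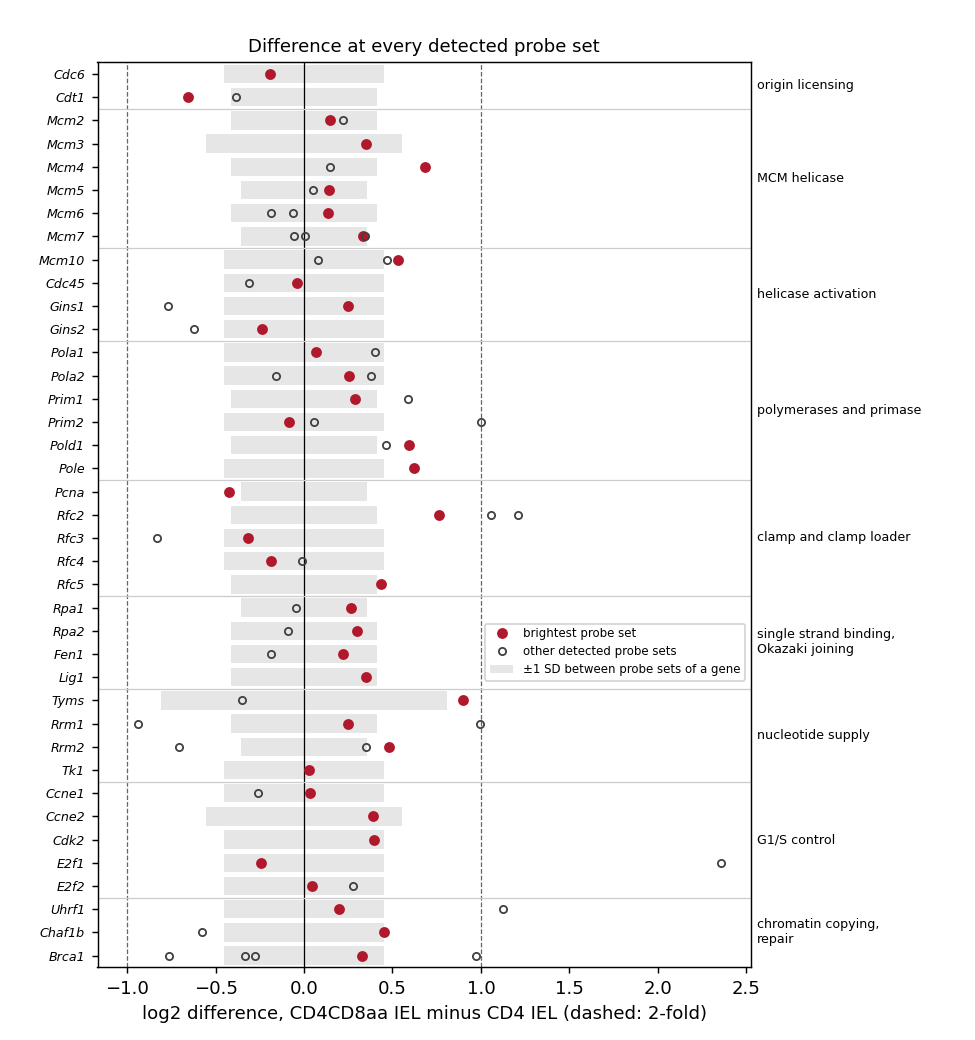
Log2 difference (CD4CD8aa IEL minus CD4 IEL) at the brightest probe set of each of the 39 genes (filled) and at their 42 other detected probe sets (open), with the same-gene SD at the signal of the brightest as a grey band and 2-fold as dashed lines. Filled points lie mostly right of 0, whereas 21 open points lie on each side.

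The other probe sets of these genes were split evenly by sign. Of the 42 other detected probe sets of these genes, 21 were above 0 and 21 below, with a median of -0.0049, where 49.5% of such probe sets of all genes were above 0, with a median of -0.0087. Of the 42, 5 were at least 2-fold higher in CD4CD8aa IEL (2 of Rfc2 and 1 each of E2f1, Uhrf1 and Prim2) and none at least 2-fold lower, where 6.84% and 7.92% of such probe sets of all genes were. Taking all 81 detected probe sets of these genes, 51 were above 0, where 52.5% of those of all genes were. Of the 56 detected probe sets with a mean signal of at least 4 times the array median, whichever their rank, 38 (67.9%) were above 0 with a median of 0.15, where 55.5% of all such probe sets were, with a median of 0.05. Of the 30 genes with at least 2 detected probe sets, 15 had those all on the same side, 10 above and 5 below 0, and 15 had them on both sides. The 5 below were Cdt1, Cdc45, Gins2, Rfc3 and Rfc4. The 17 genes with a mean signal of at least 16 times the median had a median difference of 0.29, with 15 above 0. The 22 dimmer genes had a median of 0.13, also with 15 above 0. For this split by signal, and for the genes with several probe sets, the same counts over all genes were not taken. Those counts therefore describe the list only and are not set against a background.

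**Figure D3:**
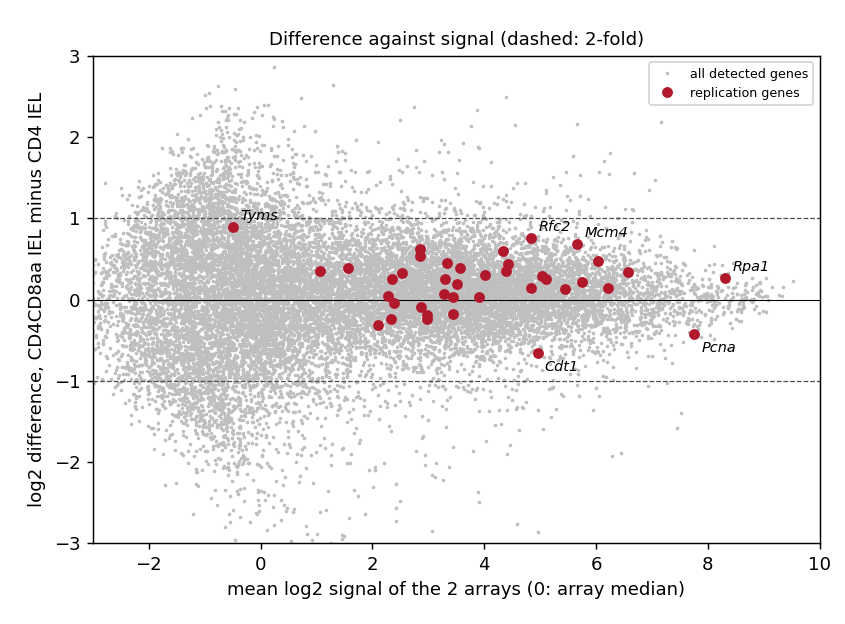
Log2 difference (CD4CD8aa IEL minus CD4 IEL) against the mean log2 signal of the arrays, with 0 at the array median, for the replication genes (large points) and all detected genes (small points, 112 of them outside the axes). The replication genes lie within the cloud of genes of like signal. Among the replication genes, Tyms (0.90), Rfc2 (0.76) and Mcm4 (0.69) lie highest and Cdt1 (-0.66) and Pcna (-0.43) lowest.

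The differences of genes with and without the promoter letters overlapped. The 13 measured genes with a match had a median difference of 0.14, with 10 above 0 and a range of -0.66 (Cdt1) to 0.59 (Pold1). The 19 measured genes with a window but no match had a median of 0.25, with 15 above 0 and a range of -0.43 (Pcna) to 0.90 (Tyms).

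Further replication genes, of which 50 were detected, had a median difference of 0.10, with 30 (60%) above 0, 2 at least 2-fold higher in CD4CD8aa IEL and none at least 2-fold lower. The share above 0 is near that of all detected genes, 54.8%, and of the genes of at least 4 times the median, 58.4%, and the 2 of 50 stand beside 6.65% and 2.02% of those genes at least 2-fold higher. Timeless, a fork protein that couples helicase and polymerase, had 13.6 in CD4CD8aa IEL and 6.09 in CD4 IEL (2.23-fold), and Clspn, which relays stalled-fork signals to the checkpoint kinase, had 41.0 in CD4CD8aa IEL and 20.0 in CD4 IEL (2.05-fold). The lowest was Orc5, an origin recognition subunit listed as Orc5l, with 8.00 in CD4CD8aa IEL and 12.1 in CD4 IEL (-0.60). Of the 23 detected E2F, RB, cyclin D and inhibitor genes, 19 (82.6%, beside the same 54.8% and 58.4%) were above 0 with a median of 0.28 and none at 2-fold. The cell cycle inhibitor Cdkn2a stood highest, at 3.47 in CD4CD8aa IEL and 1.95 in CD4 IEL (0.84), and Rbl1, which encodes the RB relative p107, lowest, at 24.3 in CD4CD8aa IEL and 30.8 in CD4 IEL (-0.34). The 22 mitosis genes had a median of 0.42, with 20 (90.9%) above 0 and 1 at least 2-fold higher. That gene was Bub1b, a spindle checkpoint kinase, with 17.5 in CD4CD8aa IEL and 8.32 in CD4 IEL (2.10-fold). The Bub1b probe set ends in _s_at, so it may also bind other transcripts. The lowest was Birc5, which encodes survivin, with 10.99 in CD4CD8aa IEL and 13.3 in CD4 IEL (-0.27). The further genes are given at their brightest probe set only.

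**Figure D4:**
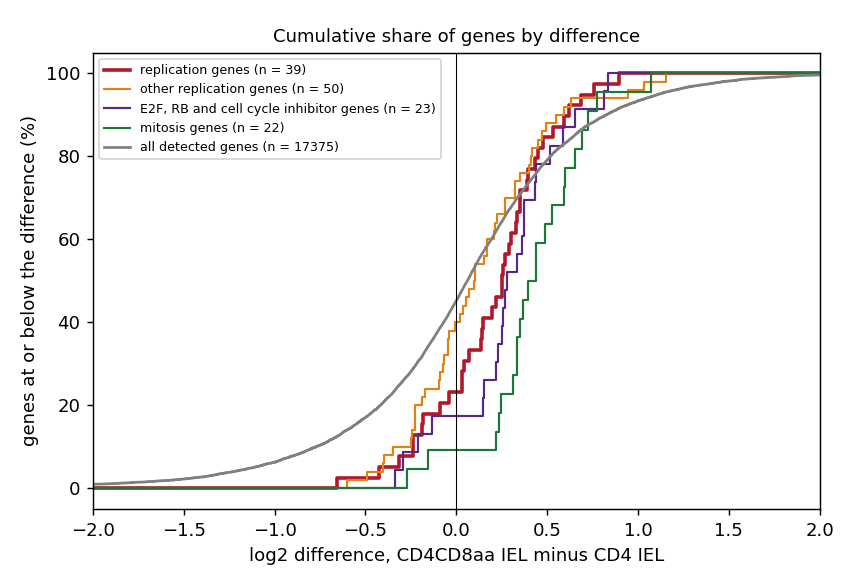
Cumulative share of genes (percent, vertical axis) by log2 difference, CD4CD8aa IEL minus CD4 IEL (horizontal axis, from -2 to 2), for the 39 replication genes, 3 related lists and all 17375 detected genes. The curve of the replication genes crosses its midpoint at 0.25, that of all genes at 0.06 and that of the mitosis genes at 0.42.

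Markers of the cell types that the sorted populations could hold were read beside these values. The 10 epithelial markers, all detected, had a summed signal of 43.7 in CD4CD8aa IEL and 51.3 in CD4 IEL, and differed in both directions, from Krt18 (2.80-fold lower) to Vil1 (2.63-fold higher). The 6 markers of crypts, where the epithelium divides, summed to 10.2 in CD4CD8aa IEL and 10.7 in CD4 IEL, with Ascl2 below the floor on both arrays. Lgr5, the crypt stem cell receptor, had 1.45 in CD4CD8aa IEL and 0.0945 in CD4 IEL, at least 3.63-fold higher, and Olfm4, another stem cell marker, had 0.0900 in CD4CD8aa IEL and 0.593 in CD4 IEL. Of the B and plasma cell markers, Jchain was below the floor on both arrays and Cd79b was 3.38-fold lower, at 0.420 in CD4CD8aa IEL and 1.42 in CD4 IEL. The differences of Ms4a1 (-0.04) and Pax5 (0.05) were small. The 6 myeloid markers summed to 20.2 in CD4CD8aa IEL and 18.6 in CD4 IEL, with Itgam below the floor on both, Itgax 3.02-fold higher and Cd14 2.98-fold lower. The 5 stromal markers summed to 2.30 in CD4CD8aa IEL and 4.55 in CD4 IEL, with Col1a1 below the floor on both. Of the 4 detected, 2 were above 0 and 2 below, from Pecam1 (at least 6.03-fold lower) to Col3a1 (at least 1.96-fold higher). The 8 T cell markers summed to 1481 in CD4CD8aa IEL and 1397 in CD4 IEL, with Cd2 6.78-fold lower and Cd3e 2.01-fold higher. The part of other cells in the differences of the replication genes was not tested.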

How the data were processed

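Per the series' design text, RNA of each sorted population was hybridised to an Affymetrix Mouse Genome 430 2.0 array. Signals came from GCOS 1.2, per the submitters' processing notes. The authors deposited intensities of 45101 probe sets as raw values, whose 2% trimmed mean was 500.0 on each array, and as values divided by the array median (81.1 for CD4CD8aa IEL and 82.5 for CD4 IEL), per the file headers and a check of the values. The deposited log2 fold runs CD4 over CD4CD8aa, opposite to the differences here, which equalled it with the sign turned. The probe summary method is not stated, and 2 columns of present or absent calls without a sample name were not used.

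Raw intensities over the array median were computed at full precision, floored at 0.4 (the higher of the arrays' 30th percentiles) and put on the log2 scale. Of the probe sets, 37781 name 1 symbol; 64 controls, 1399 with several symbols, 5821 with none and 36 with symbols altered by a spreadsheet were left out of gene counts. Each gene took its probe set of highest mean log2 signal. The same-gene SD came from 20185 probe sets of 7380 genes and covers neither animals nor RNA preparations. No test was run on 1 array a group, and the number of arrays limits the precision. Signals of further genes were matched by symbol or by an older RefSeq symbol (6 of the further replication genes). Further genes were named by their largest difference in each direction. One marker, and the summed signal of its list, are not reported here. The members and lists were chosen with earlier results of these data known. The computation was tested on simulated data with changes of at least 2-fold in bright genes and noise smaller than the same-gene SD. That check does not cover differences as small as those of the replication genes. Python 3.11.15, pandas 2.3.3 and statsmodels 0.14.6 were used.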

Additional observations from a re-analysis of the deposited data

How the results depend on the processing

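The 13 alternatives written down at the start and 1 added after seeing the data (the brightest of a member's own and shared probe sets) gave 542 values for single replication genes, of which 21 had the other sign and 7 moved by more than the same-gene SD. The sign held in every alternative that gave a value for 26 of the 39 genes, 19 above and 7 below 0. The 7 were Cdt1, Pcna, Rfc3, Gins2, Cdc6, Rfc4 and Cdc45. Most alternatives kept a gene's brightest probe set, so a held sign does not cover its other probe sets. Of the 19, Rrm1 (-0.94), Rrm2 (-0.71) and Tyms (-0.35) were among those with a detected probe set below 0. The median of the list stayed above 0, between 0.16 and 0.25, and was 0.19 with median centring, 0.16 with lowess centring and 0.17 with the median over a gene's probe sets. Between 26 and 30 genes were above 0 in the alternatives that kept exact symbols (27 of 36 under the highest floor), and 32 of 41 when older symbols were matched too. With the median over probe sets, 2 genes were at least 2-fold higher (E2f1 at 1.06 and Rfc2 at 1.06) and 4 lower by a log2 step of at least 0.32, and 5 were lower by that step with lowess centring. Without probe sets ending in _x_at or _s_at, Mcm4 was at 0.15 and Mcm7 at -0.05. The counts over all detected genes at least 2-fold higher and lower followed the floor: 1998 and 1960 without one, 446 and 483 with it 2 times as high, 204 and 219 at 2 times the array median, 141 and 140 at 4 times it, and 237 and 311 with a pseudocount of 1. The series matrix gave the values of the table. No paired analysis was possible because each group has 1 array, and for the same reason no replicate could be left out.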

Other observations

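Values of 6 genes from the further lists were picked out after they were seen. Gmnn, which encodes geminin, the inhibitor of Cdt1, had 37.2 in CD4CD8aa IEL and 48.9 in CD4 IEL (-0.40). Cdc25a, the phosphatase that activates Cdk2, had 13.4 in CD4CD8aa IEL and 17.6 in CD4 IEL (-0.40). Pclaf, which encodes a PCNA-binding factor and is listed as 2810417H13Rik, had 36.1 in CD4CD8aa IEL and 45.9 in CD4 IEL (-0.35). On the other side, Mki67, the proliferation marker Ki-67, had 125 in CD4CD8aa IEL and 75.8 in CD4 IEL (0.72), and Rfc1, the large subunit of the clamp loader, had 17.0 in CD4CD8aa IEL and 8.81 in CD4 IEL (0.95). Dnmt1, the maintenance DNA methyltransferase that works with Uhrf1, had 62.1 in CD4CD8aa IEL and 41.1 in CD4 IEL (0.59). The Dnmt1 probe set ends in _x_at, so it may also bind other transcripts. Mki67, Rfc1 and Dnmt1 lie beyond the same-gene SD at their signal and the other three within it.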
